A study of Mus musculus with 42 samples.

Results

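The genes described here were 7 erythroid genes: Epor, Klf1, Alas2, Slc4a1, Rhag, Ermap and Ahsp. They cover a receptor and a transcription factor of red cell precursors, an enzyme of haem synthesis, proteins of the red cell membrane and a haemoglobin chaperone. Members were found through the gene symbols of the array platform, which gave 9 probes for 6 of the 7 genes among the 45281 probes of the array. Ahsp, the chaperone of free alpha globin, was not analysed here. All 6 genes with a probe were among the 10879 genes tested.

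Red cell precursors make haemoglobin by joining globin chains to haem, whose synthesis in these cells starts with ALAS2. Erythropoietin, bound by its receptor Epor, keeps the precursors alive, and the transcription factors Gata1 and Klf1 switch on globin, haem and membrane genes. Mature red cells carry Slc4a1 (band 3, the chloride and bicarbonate exchanger that also anchors the membrane skeleton) and Rhag (the Rh-associated glycoprotein). In the mouse embryo the first red cells form in the yolk sac, and the fetal liver is then the main site of red cell production until around birth.

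The study followed mouse pluripotent cells during hepatocyte differentiation and set them beside primary hepatocytes. Embryonic stem (ES) cells and 2 lots of germline cell-derived pluripotent stem cells, GPSC-A and GPSC-B, were each profiled untreated (day 0) and after 2, 7, 14, 21 and 28 days of culture in embryoid bodies with a hepatic differentiation cocktail. Each of these 18 groups had 2 arrays. Primary hepatocytes of liver from E16 embryos and from postnatal day 1 (PN1) pups had 3 arrays each, 42 arrays in 20 groups in all. The labels name no strain, genotype or sex, no composition of the cocktail and no method of hepatocyte isolation, nor whether the arrays of a group stem from different cultures or animals. A p-value therefore reflects the spread between arrays within groups, which may be technical. That spread is estimated per gene over all 20 groups together, so it is not that of the compared groups alone.

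The arrays of the cultured cells detected 9873 to 15123 probes each, those of E16 9882 to 11539 and those of PN1 8427 to 9287. A probe was detected on an array when its detection p, which compares it with negative controls, was under 0.01. Levels are background-corrected, quantile-normalised log2 signals, on which values near 5 lie at the negative controls and carry no order. A gene was called different when its adjusted p (limma, Benjamini-Hochberg over 10879 genes) was under 0.05 and the change at least 2-fold, and an error after ± is the standard error of the fit unless called an SD. Precision is limited by the number of arrays.

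The labelled hepatocytes were checked against hepatocyte markers. On the E16 arrays the defining markers Alb, Afp and Apoa1 were detected on 3 of 3 arrays. On the PN1 arrays Alb and Afp were detected on 0 of 3, and Apoa1 had a mean log2 level of 12.26 against 14.31 in E16. Of 16 hepatocyte genes tested, 14 were called lower in PN1 and 0 higher, where 13.5% of all genes were called lower. Each PN1 array still detected 10 of the 16, against 15 to 16 on the E16 arrays. Both preparations also carried genes of blood cells: the neutrophil precursor genes Mpo, Elane and Prtn3 and the macrophage genes C1qa, C1qb and C1qc were detected on all 6 arrays. In whole preparations, fewer cells of a type and less RNA per cell cannot be told apart.

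Promoter windows from RefSeq (GRCm38.p6, 250 bases before to 50 after the start) were matched by symbol for 5 of the members and are printed because the same short motif is found in each. The windows were searched on both strands for the GATA motif recognised by Gata1, spelled AGATAN or TGATAN with A or G as the last base. Each window held 1 match, set in capitals and in each case on the reverse strand.
Epor, chr9:21963527-21963826, minus strand: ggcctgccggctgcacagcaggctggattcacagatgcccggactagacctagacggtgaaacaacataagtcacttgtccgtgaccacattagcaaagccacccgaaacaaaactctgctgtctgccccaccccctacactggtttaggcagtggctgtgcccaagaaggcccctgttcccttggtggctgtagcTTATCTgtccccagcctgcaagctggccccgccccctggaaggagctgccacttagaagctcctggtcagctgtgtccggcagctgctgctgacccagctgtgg
Klf1, chr8:84901732-84902031, plus strand: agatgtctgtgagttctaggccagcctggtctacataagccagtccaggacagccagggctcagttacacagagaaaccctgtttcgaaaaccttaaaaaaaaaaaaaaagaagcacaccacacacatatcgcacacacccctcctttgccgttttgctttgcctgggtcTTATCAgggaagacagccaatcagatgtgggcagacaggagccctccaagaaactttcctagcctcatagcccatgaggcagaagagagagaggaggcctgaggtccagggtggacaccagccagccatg
Alas2, chrX:150547167-150547466, plus strand: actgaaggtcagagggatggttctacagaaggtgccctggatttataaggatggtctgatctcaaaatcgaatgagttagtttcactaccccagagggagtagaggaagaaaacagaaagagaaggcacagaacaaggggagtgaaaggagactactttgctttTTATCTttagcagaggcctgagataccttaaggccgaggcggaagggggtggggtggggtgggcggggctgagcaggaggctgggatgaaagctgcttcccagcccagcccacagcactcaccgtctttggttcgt
Rhag, chr17:40810899-40811198, plus strand: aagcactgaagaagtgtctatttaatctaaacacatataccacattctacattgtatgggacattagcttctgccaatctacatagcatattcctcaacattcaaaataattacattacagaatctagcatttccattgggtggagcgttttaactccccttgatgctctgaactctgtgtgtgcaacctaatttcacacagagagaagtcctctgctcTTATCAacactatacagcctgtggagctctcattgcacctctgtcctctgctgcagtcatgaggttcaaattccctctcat
Ermap, chr4:119189946-119190245, minus strand: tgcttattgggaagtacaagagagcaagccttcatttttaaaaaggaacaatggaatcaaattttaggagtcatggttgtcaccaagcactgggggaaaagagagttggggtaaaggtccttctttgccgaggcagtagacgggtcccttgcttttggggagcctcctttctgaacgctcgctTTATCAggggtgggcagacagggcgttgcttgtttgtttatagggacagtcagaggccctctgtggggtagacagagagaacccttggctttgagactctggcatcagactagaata
The match began 54 bases before the start of Epor, 80 before that of Klf1, 86 before that of Alas2, 31 before that of Rhag and 67 before that of Ermap. These distances are counted from the start that sets each window. For Rhag and Ermap that start lies inside the annotated gene, whose outer bounds are 40811099 for Rhag and 119190013 for Ermap. Counted from those bounds, the Ermap match lies nearer to the gene and the Rhag match within it. Of all 32851 windows in the table, 29.8% held at least 1 match. The motif bound by Klf1, CCNCNCCC, had 4 matches in the window of Alas2 and 4 in that of Epor, some of them overlapping one another, none in those of Klf1, Rhag and Ermap, and at least 1 in 49.5% of all windows. The E-box CANNTG, bound by Tal1 with its partners, had 5 matches in the Epor window, 1 in the Klf1 window and none in the other three. It was found in 72.3% of all windows. No match of these motifs overlapped the GATA match. A match describes letters of the reference sequence, and no binding was measured in these samples.

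**Figure D1:**
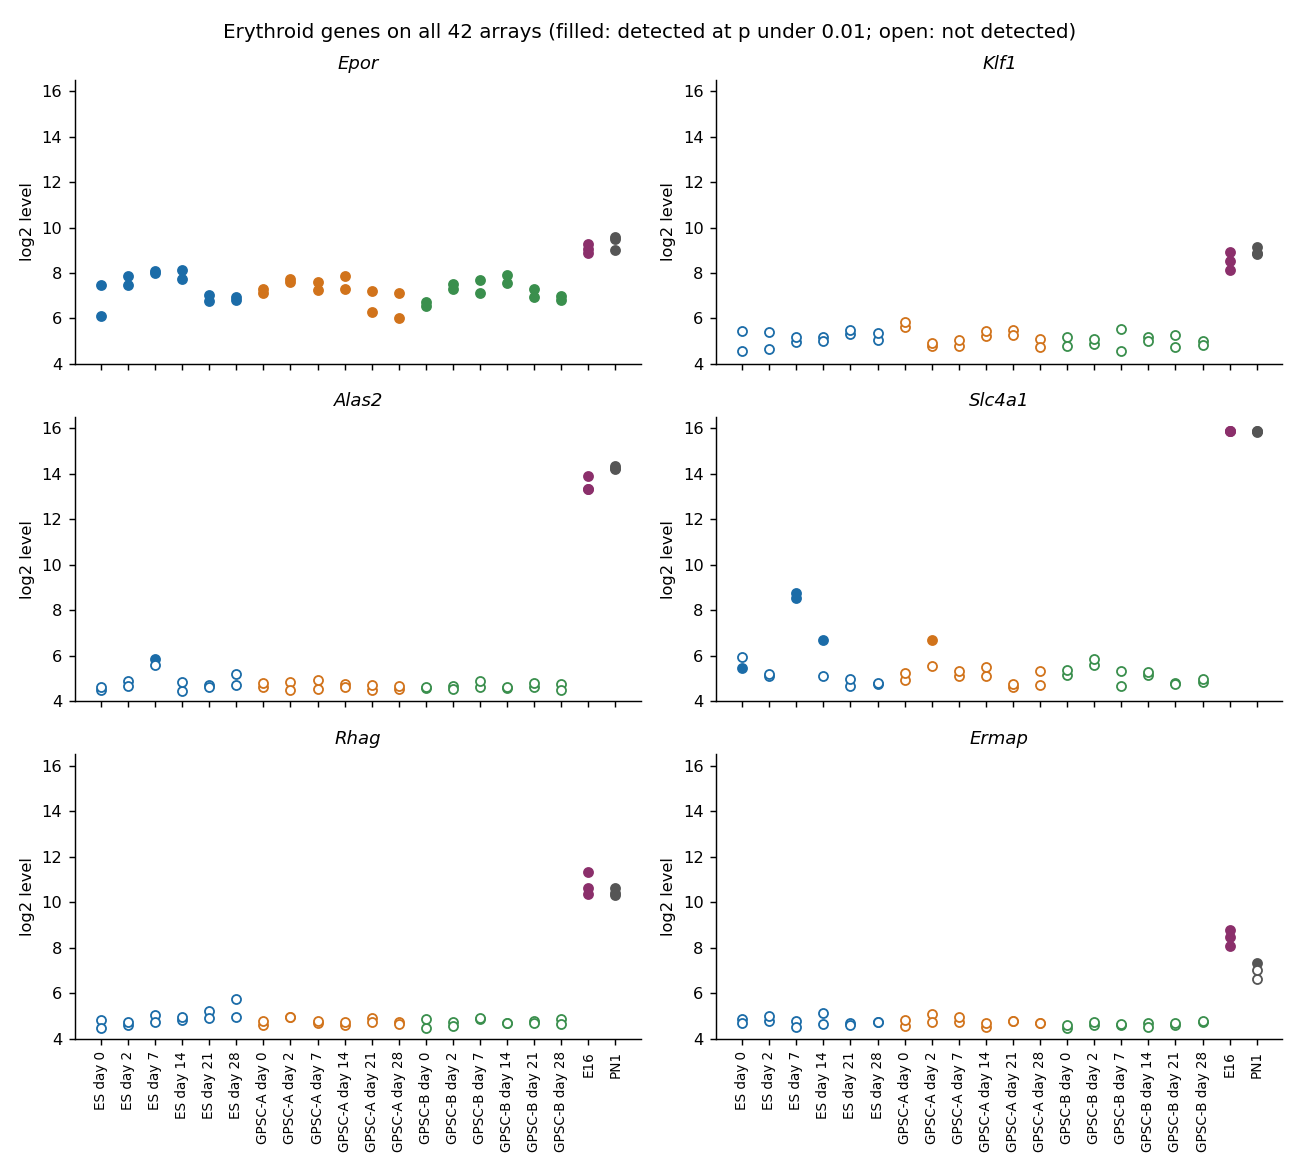
Log2 level of each gene on every array, by group (lines by day of culture, then E16 and PN1). Filled points are arrays on which the probe was detected and open points arrays on which it was not. Epor was detected on all 42 arrays, and the hepatocyte arrays lay above the cultured arrays for each of the 6 genes at this scaling.

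Across the 20 groups the 6 genes had 1 common feature at this scaling, a higher level in both hepatocyte preparations than in any cultured sample (for Epor, not under median scaling), and differed in what the cultured cells showed. Epor was detected on 42 of 42 arrays and Slc4a1 on 11, of which 5 were cultured. Alas2 was detected on 7 arrays, 1 of them cultured, and Klf1 and Rhag on the 6 hepatocyte arrays and no other. Ermap was detected on 4 arrays, 3 of E16 and 1 of PN1. Alas2, Klf1, Rhag and Ermap therefore passed the detection filter through the hepatocyte arrays and had to differ from the cultured cells, so no count over the members is read as support for that difference. A second Ermap probe was detected on 0 of 42 arrays and was left out.

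Epor, the receptor through which erythropoietin acts, was the one member measured in every group. In ES cells its log2 levels on the 2 arrays were 6.12 and 7.47 on day 0, 7.49 and 7.86 on day 2, 8.09 and 7.98 on day 7, 7.72 and 8.14 on day 14, 6.78 and 7.05 on day 21 and 6.83 and 6.93 on day 28. The 3 highest arrays of this line were both of day 7 and 1 of day 14, a day 2 array lay above the other day 14 array, and the 2 untreated arrays lay further apart than those of any other group. In GPSC-A the levels were 7.11 and 7.30 on day 0, 7.74 and 7.59 on day 2, 7.63 and 7.24 on day 7, 7.88 and 7.28 on day 14, 7.20 and 6.30 on day 21 and 7.11 and 6.01 on day 28. GPSC-B gave 6.73 and 6.56 on day 0, 7.30 and 7.51 on day 2, 7.11 and 7.69 on day 7, 7.93 and 7.55 on day 14, 6.94 and 7.28 on day 21 and 6.99 and 6.80 on day 28. By group mean Epor was highest on day 7 in ES cells (8.04), on day 2 in GPSC-A (7.66) and on day 14 in GPSC-B (7.74), and the GPSC-A arrays of days 0, 7 and 14 overlapped.

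Epor was called higher in ES cells on day 7, by 1.24 ± 0.37 on the log2 scale (adjusted p = 0.0172), and on day 14, by 1.14 ± 0.37 (adjusted p = 0.0207), both against day 0. Across all genes 15.6% were called in the day 7 comparison and 23.9% in the day 14 comparison. The day 7 difference was under 2-fold without background correction (0.71) and in the authors' processed values (0.75), and missed the threshold under median scaling (adjusted p = 0.11). Both Epor calls rested on the first untreated array: without it the differences were 0.57 (adjusted p = 0.447) and 0.46 (adjusted p = 0.485). The day 7 call was also lost without the first (adjusted p = 0.0979) or the second (adjusted p = 0.0708) day 7 array, and the day 14 call without the second day 14 array (adjusted p = 0.175). In GPSC-B Epor was called higher on day 14, by 1.10 ± 0.37 (adjusted p = 0.0268, 22.2% of all genes called), a call lost without any single array of those groups (adjusted p of 0.0508 to 0.185). In the GPSC-A comparisons with day 0, Epor was not called.

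In the hepatocyte preparations Epor reached 9.28, 9.07 and 8.88 in E16 and 9.02, 9.61 and 9.50 in PN1. The 2 preparations overlapped, and all 6 values lay above the highest cultured value of 8.14. This order depended on the scaling, since under median scaling the lowest hepatocyte value was 7.79 and the highest cultured value 8.69. The scanner signals themselves, at 294.3 to 408.2 in hepatocytes and 185.5 to 593.1 in cultured cells, also overlapped. By mean level the groups ran from PN1 (9.37) and E16 (9.07) through ES day 7 (8.04) and ES day 14 (7.93) to GPSC-B day 0 (6.64) and GPSC-A day 28 (6.56), and E16 and ES day 7 were the only neighbours in this order whose arrays did not overlap.

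Klf1, the transcription factor that switches on the adult beta globin gene and many other red cell genes, was detected on 0 of 36 cultured arrays. Its log2 levels there ran from 4.56 to 5.86, the highest on an untreated GPSC-A array on which it was not detected. The 3 E16 arrays gave 8.51, 8.93 and 8.13 and the 3 PN1 arrays 8.85, 9.15 and 8.88. The 2 preparations overlapped and stood apart from all cultured arrays.

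Alas2, the erythroid form of the first enzyme of haem synthesis, was far more abundant in the hepatocyte preparations than in cultured cells. Its E16 levels were 13.32, 13.35 and 13.91 and its PN1 levels 14.23, 14.25 and 14.33, with no overlap between the preparations. The 36 cultured arrays had a lowest level of 4.45, a median of 4.66 and a highest of 5.84. The 2 highest cultured values were the ES day 7 arrays at 5.84 and 5.58, of which the first passed detection and the second did not.

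Alas2 was called higher on day 7 than on day 0 of ES culture (adjusted p = 0.000766), where the untreated arrays read 4.51 and 4.65 and were not detected. No fold is given, because the day 7 mean lies below the mean of the lowest signals detected on the untreated arrays. Day 14, at 4.45 and 4.84 and not detected, was called lower than day 7 (adjusted p = 0.00361). Without the first day 7 array the day 7 difference was 0.996 and under the 2-fold limit, and the day 14 call was lost without that array (adjusted p = 0.0729) or without the first day 14 array (adjusted p = 0.0802).

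Slc4a1 gave the clearest change in cultured cells. In ES cells its levels were 5.44 and 5.93 on day 0, 5.11 and 5.18 on day 2, 8.52 and 8.78 on day 7, 5.12 and 6.70 on day 14, 4.67 and 4.97 on day 21 and 4.78 and 4.79 on day 28. Both day 7 arrays lay above every other cultured array. One untreated array, 1 array of day 14 and both of day 7 passed detection. In GPSC-A the levels were 4.92 and 5.26 on day 0, 6.69 and 5.55 on day 2, 5.11 and 5.33 on day 7, 5.13 and 5.49 on day 14, 4.64 and 4.75 on day 21 and 5.33 and 4.71 on day 28, and only the first day 2 array passed detection. No GPSC-B array did, and its levels ran from 4.68 to 5.85.

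From day 0 to day 7 Slc4a1 rose in ES cells by 2.96 ± 0.35 on the log2 scale (adjusted p = 3.16e-07), where 7.69% of all genes were called higher. It then fell by 2.74 from day 7 to day 14 (SE 0.35, adjusted p = 5.31e-06), where 1.88% of all genes were called lower. Only 1 of 2 arrays passed detection on day 0 and likewise on day 14. Both sizes therefore rest partly on levels near the negative controls, and no fold is given. Leaving out any 1 array of the groups compared kept both calls, with differences of 2.72 to 3.21 for the rise and of -3.53 to -1.95 for the fall, but the fall missed the threshold in a fit to the days 7 and 14 arrays alone (adjusted p = 0.0531). The size of the rise depended on the background correction and was 1.66 without it and 1.75 in the authors' processed values.

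The 7-day response of Slc4a1 differed between ES cells and both GPSC lots. Its change in GPSC-A differed from that in ES cells by -2.84 ± 0.50 on the log2 scale (interaction of line and day, adjusted p = 0.000511), in a comparison where 3.38% of all genes were called. For GPSC-B the difference was -3.22 ± 0.50 (adjusted p = 0.000365, with 1.68% of all genes called). Slc4a1 was detected on no day 0 or day 7 array of either GPSC lot and on 1 of 2 untreated ES arrays. The sizes of these differences therefore rest partly on levels near the negative controls. These 2 comparisons share the ES arrays. Neither called another of the 6 members: Alas2 had adjusted p of 0.0686 and 0.189 and Epor of 0.47 and 1. With the replicate number as a block Alas2 was called in the GPSC-A comparison (adjusted p = 0.0314). No size is given for it, because Alas2 was detected on only 1 of the 36 cultured arrays. With this block the calls over all genes rose from 368 to 717 for GPSC-A and from 183 to 385 for GPSC-B.

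Other lists moved in the same tests of line and day. Of 6 globins 5 were called lower in GPSC-A and 5 in GPSC-B than in ES cells, and of 14 endothelial genes 6 and 8. Over all genes 1.7% were called lower in GPSC-A and 0.919% in GPSC-B. Of 18 red cell transcription factors and cofactors 4 were called lower in each, and 1 was higher in GPSC-A. The summed normalised signal of the endothelial list on day 7 was 11409 to 12609 in ES cells, 2559 to 2748 in GPSC-A and 2788 to 2869 in GPSC-B. The part of these genes in the Slc4a1 difference was not tested.

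**Figure D2:**
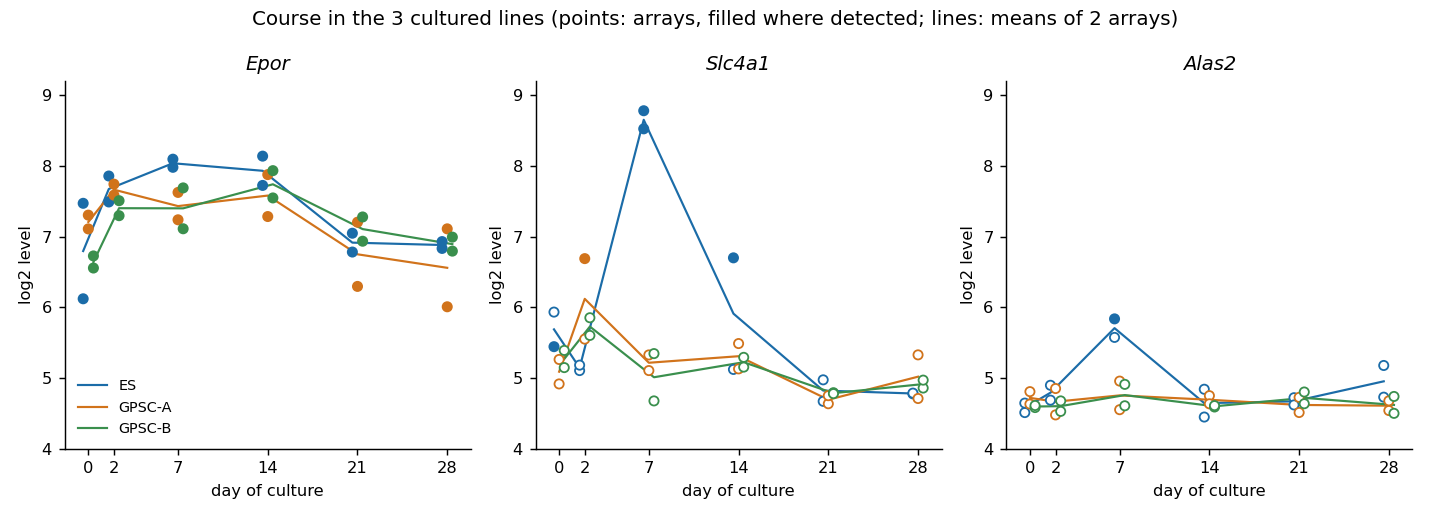
Log2 level of Epor, Slc4a1 and Alas2 by day of culture in the ES, GPSC-A and GPSC-B lines. Points are arrays (filled where detected), lines join means of 2 arrays, and points of the lines are shifted sideways for clarity. Slc4a1 peaks on day 7 in ES cells, with 8.52 and 8.78, while both GPSC lots stay between 4.68 and 5.35 on that day.

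In the hepatocyte preparations Slc4a1 was among the brightest genes of the array. Its levels were 15.88, 15.88 and 15.90 in E16 and 15.90, 15.90 and 15.83 in PN1, and it ranked between 8 and 12 among all probes of each array. Scanner signals were 52300, 51490 and 51480 in E16 and 48600, 43910 and 37920 in PN1, against 61268 to 64359 for the brightest probe of these arrays. The scanner signals of the preparations did not overlap while the normalised levels did, so at this end of the scale the normalised values resolve little.

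Rhag, which forms the Rh complex with the blood group proteins and conducts ammonia, was measured by 3 probes, each detected on the 6 hepatocyte arrays and on no cultured array. The probe with the highest mean gave 10.62, 10.34 and 11.32 in E16 and 10.30, 10.40 and 10.61 in PN1. The other two gave 10.89, 10.75 and 11.39 against 10.48, 10.33 and 10.63, and 9.73, 9.63 and 10.53 against 10.05, 9.75 and 9.77. The preparations overlapped for the first and the third of these probes and not for the second, and the highest cultured level of the first probe was 5.74, on an ES day 28 array.

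Ermap, an erythroid membrane protein of the immunoglobulin superfamily that carries the Scianna blood group in humans, was the one member called between E16 and PN1. Its levels were 8.49, 8.09 and 8.77 in E16 and 6.63, 7.32 and 7.03 in PN1, with detection on 3 and on 1 of 3 arrays. The 36 cultured arrays ran from 4.45 to 5.14. Ermap fell from E16 to PN1 by 1.46 ± 0.195 on the log2 scale (adjusted p = 7.39e-07), in a comparison that called 13.5% of all genes lower and 23.8% in either direction. The lowest signals detected on the PN1 arrays were 6.98 to 7.33, so the size of the fall rests on levels around the limit of detection. Of the calls of that comparison 43.3% were higher in PN1, and 18.1% under median scaling. Without background correction and in the authors' processed values the difference was -0.95 and -0.96, under the 2-fold limit, at adjusted p of 5.65e-07 and 2.34e-07.

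Among the other members the 2 preparations were closer. In the quantile-normalised values Alas2 was higher in PN1 by 0.74 ± 0.19 (adjusted p = 0.00312), short of 2-fold. In the same values Klf1, Epor, Rhag and Slc4a1 differed by 0.43, 0.30, -0.32 and -0.01 (adjusted p of 0.228 to 0.989). The 95% interval of the difference was -0.11 to 0.97 for Klf1, -0.33 to 0.93 for Epor, -0.77 to 0.13 for Rhag and -0.61 to 0.59 for Slc4a1. These intervals use the spread shared by all 20 groups. For Slc4a1 the SD was 0.0125 in E16 and 0.0409 in PN1. Under median scaling the differences of Klf1 and Epor were -0.14 and -0.22, so no direction is given for either.

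**Figure D3:**
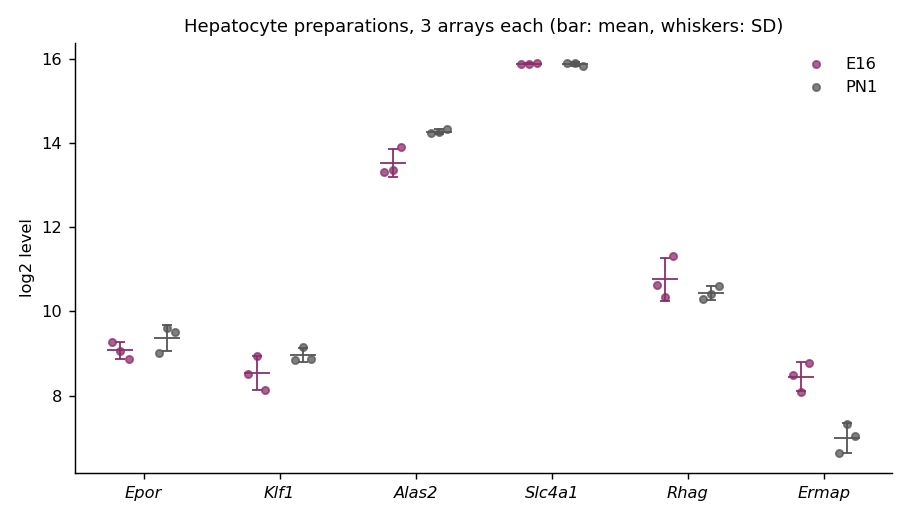
Log2 level of the 6 genes in the E16 and PN1 hepatocyte preparations. Points are the 3 arrays of each, horizontal bars their mean and whiskers the SD. Ermap is lower in PN1 (6.63 to 7.32) than in E16 (8.09 to 8.77), Alas2 higher, and the others overlap.

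Genes of other cell types moved between the same arrays. From E16 to PN1, 9 of 13 neutrophil precursor genes and 4 of 14 macrophage genes were called higher and 0 lower, beside the 14 of 16 hepatocyte genes called lower. Over all genes 10.3% were called higher and 13.5% lower in this comparison. The summed normalised signal of the neutrophil list was 136050 to 142818 in E16 and 263148 to 280747 in PN1, that of the macrophage list 39607 to 43302 and 91145 to 102464, and that of the hepatocyte list 274088 to 313373 and 47215 to 50607. The 6 erythroid members summed to 73242 to 80263 and 81645 to 83375. That sum is made up mostly of Slc4a1, at a mean log2 level of 15.88 in both preparations, and says little about the dimmer members. The part of the neutrophil, macrophage and hepatocyte shifts in the Ermap and Alas2 values was not tested.

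The cultured cells after 28 days were set beside the E16 preparation gene by gene. In ES cells Slc4a1 was at least 962-fold lower than in E16, Alas2 at least 188-fold, Rhag at least 27.5-fold, Klf1 at least 5.86-fold and Ermap at least 5.55-fold. These are bounds, set by the lowest signal detected on the day 28 arrays. The largest adjusted p of these 5 genes in ES cells was 1.82e-10, which supports nothing for Klf1, Rhag, Ermap and Alas2, as they passed the filter through the hepatocyte arrays. The bounds for GPSC-A were 1050, 204, 30, 6.38 and 6.04 and those for GPSC-B 962, 188, 27.5, 5.86 and 5.55 for the same genes. Epor, which was measured on both sides, differed from E16 by -2.19 ± 0.34, -2.52 ± 0.34 and -2.18 ± 0.34 on the log2 scale in ES, GPSC-A and GPSC-B (largest adjusted p = 4.44e-06), and by -1.40, -1.49 and -1.30 under median scaling. Of all genes 15.9%, 15.3% and 14.3% were called lower in these comparisons, which share the E16 arrays.

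On day 7 the ES cells, where Slc4a1 and Alas2 were at their cultured maximum, were still below E16, in a comparison that called 16.2% of all genes lower. Slc4a1 differed from E16 by -7.23 ± 0.32 on the log2 scale (adjusted p = 7.15e-17), with the E16 level near the top of the scale, where the normalised values resolve little. Alas2 read 5.84 and 5.58, detected on 1 of 2 arrays, against 13.32 to 13.91 in E16, and no difference is given because the day 7 mean lies below the mean of the lowest signals detected on those arrays. Epor differed by -1.04 ± 0.34 (adjusted p = 0.0132), a call lost under median scaling, where the difference was -0.24, without background correction and in the authors' processed values. Leaving out 1 array at a time gave Epor differences of -1.14 to -0.934, the smallest of them under the 2-fold limit. GPSC-A and GPSC-B on day 7 gave Slc4a1 bounds of at least 1060-fold and 1100-fold lower than E16 (15.9% and 15% of all genes called lower).

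Of the globins, 5 of 6 tested were called higher in ES cells on day 7 than on day 0, where 7.69% of all genes were called higher. The counts were 0 of 6 in GPSC-A and 2 of 6 in GPSC-B, with 4.38% and 5.93% of all genes called higher. Their summed normalised signal was 18860 to 21976 on day 7 of ES culture, 168 to 236 on day 0 and 123169 to 130534 in E16. In GPSC-A and GPSC-B the day 7 sums were 189 to 216 and 348 to 1546. On day 14 the sum was 948 to 3395 in ES cells, 715 to 1452 in GPSC-A and 2462 to 2902 in GPSC-B. Each of these day 14 arrays detected 5 of the 6 globins.

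Of 18 tested transcription factors and cofactors of red cell precursors, 6 were called higher and 0 lower in ES cells on day 7, where 7.69% of all genes were called higher, with a median change of 0.26 on the log2 scale against 0.01 over all genes. Tal1, which starts the blood cell programme, was at least 4.23-fold higher (adjusted p = 3.3e-07), and Nfe2, which binds the globin control region, at least 4.18-fold (adjusted p = 5.67e-09). Lmo2, the bridging partner of Tal1, rose by 2.69 ± 0.47 on the log2 scale (adjusted p = 8.41e-05), and Lyl1, a relative of Tal1, was at least 1.81-fold higher (adjusted p = 3.12e-05). In the authors' processed values and without background correction 3 of the 18 were called, and Lyl1 was not among them. GPSC-A had 1 higher and 0 lower on day 7, and GPSC-B 2 and 0, near the 4.38% and 5.93% of all genes called higher there.

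Of 20 red cell membrane and skeleton genes, 5 were called higher and 1 lower in ES cells on day 7 (median 0.12), where 7.69% of all genes were called higher and 7.86% lower. Tmod1, which caps actin in the membrane skeleton, was at least 9.39-fold higher (adjusted p = 2.47e-12). The spectrin Sptb was at least 2.22-fold, the adducin Add2 at least 1.51-fold and the Kell blood group protein Kel at least 1.40-fold higher (largest adjusted p of the 3 = 0.00451). Dmtn, which bundles actin, fell by 3.54 on the log2 scale (SE 0.27, adjusted p = 6.95e-11). The count of 5 became 4 under median scaling, 2 without background correction and 1 in the authors' processed values, where Sptb, Add2 and Kel were not called. Of the 17 genes of the globin, transcription factor and membrane lists called on day 7, 10 kept their call in each of these settings and without any 1 array.

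Of 21 genes of haem synthesis and iron supply, 13 of erythropoietin and stem cell factor signalling and 10 of other red cell metabolism, limma called 0 in ES cells on day 7, with 2, 3 and 4 at an unadjusted p under 0.05. At an adjusted p under 0.05 there were 1, 0 and 0, the 1 missing the call by the 2-fold limit. The median changes of these lists were 0.04, 0.29 and 0.38. Alas2 and Epor were not counted among these lists.

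Genes of other cell types also differed between day 7 and day 0 of ES culture. Over all genes 7.69% were called higher and 7.86% lower in this comparison. Of 14 endothelial genes 9 were called higher and 0 lower, with a summed normalised signal of 11409 to 12609 on day 7 against 3564 to 4695 on day 0. The defining endothelial marker Cdh5 was detected on 2 of 2 day 7 arrays and 0 of 2 untreated arrays, while Pecam1 was detected on all 4. Of 9 megakaryocyte genes 2 were higher and 1 lower, of 13 neutrophil precursor genes 2 were higher and 0 lower, and 0 of 14 macrophage genes were called (1 at an unadjusted p under 0.05), with C1qa, C1qb and C1qc detected on no ES day 7 array. All 11 pluripotency genes tested were called lower. The part of these genes in the Slc4a1 and Alas2 values was not tested.

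**Figure D4:**
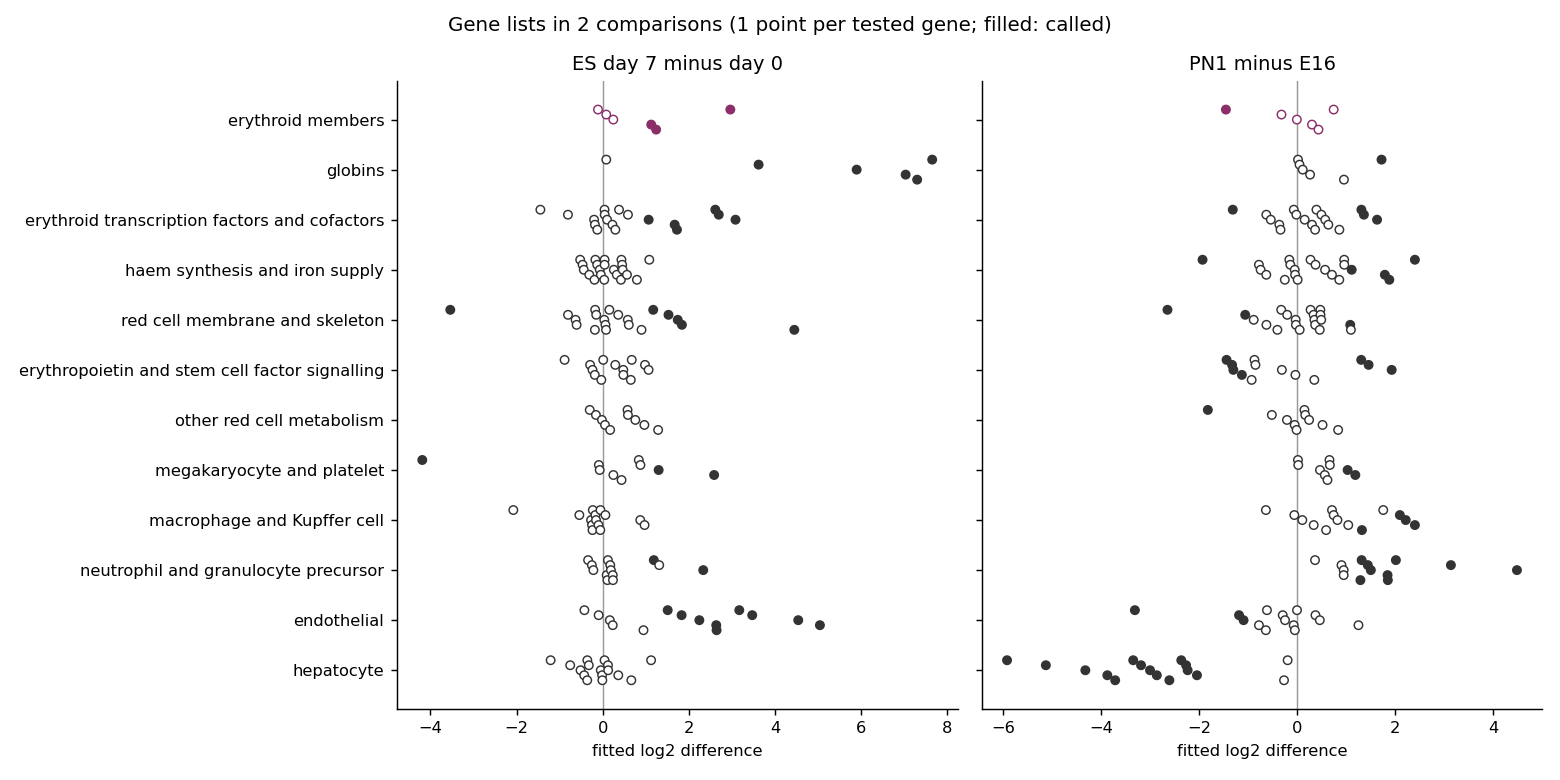
Fitted log2 differences of the genes of 12 lists, for ES day 7 minus day 0 (left) and PN1 minus E16 (right). Each point is 1 tested gene, filled where it was called, and points are spread vertically for clarity. On the left 3 of 6 erythroid members and 5 of 6 globins lie to the right as filled points, where 7.69% of all genes were called higher. On the right 14 of 16 hepatocyte genes lie to the left as filled points, where 13.5% of all genes were called lower.

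Between E16 and PN1, 21 of the 88 tested genes of the other red cell lists were called, which is 23.9% and near the 23.8% of all genes, so the genes below are given as values and not as a result about the lists. Over all genes 10.3% were called higher and 13.5% lower. Of the 18 transcription factors 3 were higher in PN1, namely Zbtb7a by 1.63 ± 0.40, Lyl1 by 1.36 ± 0.23 and Gata1 by 1.31 ± 0.20 on the log2 scale, and Sox6, which silences embryonic globin, was at least 1.18-fold lower. Under median scaling none of the 3 was called. Of the 21 haem and iron genes 4 were higher, among them the haem-degrading enzyme Hmox1 by 2.40 ± 0.67, the ferritin light chain Ftl1 by 1.88 ± 0.45 and the non-erythroid first enzyme of haem synthesis Alas1 by 1.79 ± 0.54, and the iron importer Slc11a2 differed by -1.93 ± 0.34. Hmox1 stood on the macrophage list as well.

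Of the 13 signalling genes 3 were higher in PN1 and 4 lower. The phosphatase Ptpn6, which damps erythropoietin signalling, was higher by 1.93 ± 0.36 on the log2 scale, and Sh2b3, another brake on it, at least 1.73-fold. The feedback inhibitors Socs3 and Cish, both targets of cytokine receptor signalling, differed by -1.44 ± 0.50 and -1.31 ± 0.26. Tfr2, the second transferrin receptor and a partner of Epor, differed by -1.33 ± 0.21, and Erfe, the hormone with which precursors lower hepcidin, by -1.13 ± 0.44 (adjusted p = 0.0484). Of 20 membrane genes Aqp1, the water channel, was higher by 1.08 ± 0.37 and Add2 at least 2.22-fold lower, and Xk differed by -1.06 ± 0.31. Of 10 other red cell genes, Pklr, the pyruvate kinase of liver and red cells, differed by -1.83 ± 0.33, and of 6 globins 1, Hba-x, was higher by 1.72 ± 0.51 (adjusted p = 0.00907). Of the 21 genes called in these lists, 5 (Ptpn6, Cish, Alas1, Ftl1 and Add2) kept their call without background correction, under median scaling, in the authors' processed values and without any 1 array, and 0 changed sign there. Hba-x and Hmox1 lost theirs under median scaling, Erfe in each of these 3 settings and Socs3 without some single arrays.

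The pattern of each member over the 20 group means was set beside that of every other tested gene by Pearson's r, as a description. For Alas2 the most similar were the neutrophil precursor gene Mpo (0.9985), Stfa2 (0.9967) and Kel (0.9961), and for Rhag Tent5c (0.9935), Slfn14 (0.9932) and Alas2 itself (0.9918). Slc4a1 was closest to the platelet tubulin Tubb1 (0.9938), Nfe2 (0.9928) and Gfi1b (0.9895). Klf1 was closest to Cd207 (0.9837), Hbb-b2 and Cytip (both 0.9836). Ermap was closest to the hepatocyte genes Haao (0.9862), Apoc3 (0.9853) and Prodh2 (0.9844). Epor had its highest values with adult globin genes, near-identical copies that a probe may not separate: Hba-a1 (0.9275), Hbb-bt (0.9128) and Hbb-bs (0.9123).

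These values rest largely on the 2 hepatocyte groups against the 18 cultured ones: 139 genes had an r over 0.95 with Alas2, 125 with Rhag, 104 with Klf1, 57 with Slc4a1, 44 with Ermap and 0 with Epor. Over the 18 cultured groups alone Slc4a1 was closest to the endothelial receptor Tek (0.9291), Tubb1 (0.9099) and Nfe2 (0.9011). Between members, r over the 20 groups ran from 0.7815 for Epor with Ermap to 0.9918 for Alas2 with Rhag.

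In all other comparisons of a cultured day with day 0, limma called 0 of the 6 members. These were days 2, 21 and 28 of ES cells, every day of GPSC-A and days 2, 7, 21 and 28 of GPSC-B, with 0 to 2 members at an unadjusted p under 0.05. Of all genes 8.02%, 32.3% and 33.8% were called on these days of ES cells, 2.95%, 8.47%, 18%, 25.6% and 28.8% from day 2 to day 28 of GPSC-A and 1.65%, 11.9%, 28.9% and 32% on these days of GPSC-B. On day 28 of ES cells Rhag and Slc4a1 had adjusted p of 0.0343 and 0.0428 (limma) and missed the call by the 2-fold limit. The same held for Klf1 on day 28 of GPSC-A (adjusted p = 0.0424), at levels near the negative controls. With the replicate block the day 2 calls over all genes rose from 321 to 500 in GPSC-A and from 180 to 309 in GPSC-B. In 4 of these comparisons the count became 1 without a single array. Slc4a1 was called higher on day 2 of GPSC-A without its second day 2 array. It was detected on no untreated array of that lot, so no size is given. Epor was called higher on day 2 of ES cells without the second untreated array (1.55). It was called lower on day 28 of GPSC-A without the first day 28 array (-1.20). On day 28 of ES cells, Slc4a1 was called lower without the first untreated array and Rhag higher without the second day 28 array. Slc4a1 was detected on no day 28 array of ES cells and Rhag on no cultured array. These calls compare levels near the negative controls, so no size is given.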

How the data were processed

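Total RNA of 42 mouse samples had been hybridised to Illumina BeadChips, 1 array per sample. The submitters' processing notes name GenomeStudio without a version. In the deposited table each probe has an intensity per array, linear and non-normalised per the labels of the series, and the authors' detection p-value beside it. Processed intensities of these arrays, deposited by the authors as a series matrix whose method is not given in sources used here, served as an alternative.

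From the deposited intensities, neqc (limma 3.58.1 in R 4.3.3, offset 16) made background-corrected, quantile-normalised log2 levels, using the detection p-values. The platform annotation gave 1 symbol to 34885 of 45281 probes, several to 18 and none to 10378. Probes detected at p under 0.01 on at least 2 arrays were kept (19251), and the probe with the highest mean stood for its gene (10879 genes). One 20-group limma model was fitted to the 42 arrays (22 residual degrees of freedom), with groups from the labels and Benjamini-Hochberg adjustment over all genes of a comparison. A probe detected on no array of a group has a bound there, so "at least N-fold" compares the other group's mean with a floor: on each array the lowest signal of any detected probe, or the probe's level where that is higher. Same-numbered arrays deviated together in every cultured line (r of 0.246 to 0.643 over all pairs of days) and hardly in the hepatocytes (0.006 to 0.082). The replicate numbers were therefore taken to pair the cultured arrays, from the data and not from a batch named in the labels. The fit without a block remained the main one. The fit was tested on simulated data.

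The members, gene lists and comparisons were chosen with earlier results of these data known. Named were all probes of the members, up to 4 called genes per list and direction in ES day 7 against day 0 and PN1 against E16, the 3 most similar genes per member, and the first 3 markers of other cell types. Alternatives were no background correction, median scaling, the series matrix, other detection filters, single probes, a fit to the compared groups, a replicate block and leaving out each array. Counts of the other lists under these scalings were added after seeing the data. Promoter windows came from RefSeq (GRCm38.p6). Figures were drawn with matplotlib 3.10.9 in Python 3.11.15.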

Additional observations from a re-analysis of the deposited data

Results flagged for a closer look

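The change of Slc4a1 from day 0 to day 7 differed between lines by the test of the difference itself (interaction of line and day in the limma model). It was lower in GPSC-A than in ES cells, with a difference of -2.84 ± 0.50 on the log2 scale (adjusted p = 0.000511). Leaving out each array in turn gave -3.08 to -2.59. In GPSC-B the difference from ES cells was -3.22 ± 0.50 (adjusted p = 0.000365), with -3.56 to -2.89 on leaving out arrays. In ES cells both day 7 arrays lay above both untreated ones. In GPSC-A and GPSC-B Slc4a1 was detected on no array of these days, so no order of the days is given. The sizes of the differences therefore rest partly on levels near the negative controls. Without background correction the differences were -1.61 and -1.80, and both remained called.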

How the results depend on the processing

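Counts of called members were recomputed for 25 comparisons, and a count is said to have moved where it changed by over 1.5 times. Detection on at least 4 arrays and testing every probe alone changed none of the 25. Without background correction, and likewise in the authors' series matrix, 5 counts moved: ES day 7 against day 0 from 3 to 1, ES day 14 against day 0 from 1 to 0, GPSC-B day 14 against day 0 from 1 to 0, ES day 14 against day 7 from 2 to 1 and PN1 against E16 from 1 to 0. These calls fell under 2-fold or missed the threshold, and the cause was not tested. In both settings ES day 7 against E16 also went from 6 to 5. Median scaling moved ES day 14 against day 7 from 2 to 1, and by less than 1.5 times changed ES day 7 against day 0 from 3 to 2 and day 7 of each line against E16 from 6 to 5. A fit to the compared groups alone, which has fewer samples, gave 0 for ES day 14 against day 0, 0 for GPSC-B day 14 against day 0 and 0 for ES day 14 against day 7, and 2 in place of 3 for ES day 7 against day 0. With no filter on dim probes the comparison of the GPSC-A and ES changes had 2 calls in place of 1, the second being Alas2 (adjusted p = 0.0422), and the cause was not tested.

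Leaving out each array in turn kept the count in 16 of the 25 comparisons. The ranges in the others were 1 to 3 for ES day 7 against day 0, 0 to 2 for ES day 14, 0 to 1 for ES day 2, 0 to 1 for ES day 28, 0 to 1 for GPSC-A day 2, 0 to 1 for GPSC-A day 28, 0 to 0 for GPSC-B day 14, 1 to 2 for ES day 14 against day 7 and 5 to 6 for ES day 7 against E16. Of 1896 member values under all alternatives, 0 called values reversed, 39 lost their call and 8 gained one.

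With the replicate number as a block the comparison of the GPSC-A and ES changes had 2 calls in place of 1, Alas2 being added (adjusted p = 0.0314), and the block changed no other call of a member. Slide as a block was not run, since the tables used here give no slide.

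Calls over all genes moved more. They fell from 1692 to 998 without background correction, 940 under median scaling and 1024 in the series matrix for ES day 7, and from 2588 to 1468, 1655 and 1504 for PN1 against E16. Median scaling changed the share of higher calls from 49.5% to 38.5% for ES day 7, from 71.7% to 86.5% for ES day 14 against day 7 and from 55.9% to 77.2% for ES day 28 against E16. It shifted the median of all genes by -0.12 for ES day 7, by -0.17 for PN1 against E16 and by 0.44 to 0.98 for cultured cells against E16.

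Signals near the negative controls limit Klf1, Alas2, Rhag and Ermap in cultured cells, and signals near the top of the scale limit Slc4a1 in hepatocytes.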
